A study of Mus musculus with 8 samples.

Results

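The 40 genes described here encode proteins that copy DNA or control entry into S phase. The genes were chosen by name for those roles, with earlier results of these data known. They make up 40 of the 24421 gene symbols counted in each library, and all 40 passed the filter on low counts. By role they are 2 origin recognition genes, 8 helicase loading genes, 6 helicase activation genes, 6 genes of the sliding clamp and its loader, 8 polymerase and primase genes, 2 genes that finish the lagging strand, 4 nucleotide synthesis genes and 4 regulators of the G1/S transition.

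RNA came from naive CD4+ T cells of the spleen of C57BL/6 mice, labelled as males 6 to 8 weeks old. The 4 libraries titled E1KO stand for mice with a floxed Pcbp1 gene and a Cre recombinase under Cd4 control (Pcbp1fl/flCd4-Cre), and the 4 titled E1WT for wild type, a genotype that the labels write as Pcbp1+/+Cd4-Cre (WT), so that the controls would carry the Cre as well. Cd4-Cre acts in the thymus in all cells that pass through the double-positive stage, so the deletion precedes the naive state and also covers the CD8 lineage. In all 8 samples the genotype entry contradicts the title, and libraries are called E1KO and E1WT here by title alone. Pcbp1, the floxed gene, lay at 38.3 to 41.8 CPM (gene counts scaled by TMM to a total of 1000000) in the E1KO libraries and at 203 to 243 CPM in the E1WT libraries, which goes with the titles. Xist, the RNA of the inactive X chromosome, lay at 365 to 425 CPM in E1KO and at 0.55 to 2.89 CPM in E1WT libraries. Ddx3y, a gene of the Y chromosome, was read in both, at 52.0 to 57.5 and at 103 to 115 CPM. Every E1KO library thus held both RNAs, which the label of males does not account for. The title cannot be told apart from this difference in sex-linked RNA, and its source was not tested.

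Before a cell copies its DNA, the origin recognition complex, Cdc6 and Cdt1 load the MCM2-7 ring onto origins, a step called licensing. At the start of S phase Mcm10, Cdc45 and GINS turn the ring into an active helicase, primase and polymerase alpha begin each strand, and the PCNA clamp, set by the RFC loader, holds polymerases delta and epsilon to the template. Cyclin E with its kinase and the E2F factors drive this entry, and ribonucleotide reductase supplies the deoxynucleotides. Naive T cells rest outside the cycle until their receptor is engaged, and licensing proteins are built up again as they leave that state.

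Promoters were read as the 250 bases before the RefSeq start (GRCm38.p6), and 32 of the 40 genes had an entry. The letters searched on both strands for E2F were TTTCCCGC, TTTCGCGC, TTTGCCGC and TTTGGCGC. They occurred in 8 of the 32 promoters (25%), namely Orc1, Cdc6, Mcm5, Mcm6, Mcm7, Gins3, Rfc3 and Pola1, against 3.83% of the 10095 tested genes with a promoter and 2.16% of all 27025. Among genes that rose the share was 5 of 20, and among those not called 3 of 11. CCAAT, the letters bound by NF-Y, was in 19 of 32 (59.4%, against 4039 of the 10095 tested genes), the CHR letters TTTGAA in 6 of 32 (18.8%, against 12.8%) and the GC box GGGCGG in 24 of 32 (75.0%, against 61.9%). A match of letters is a description of sequence and no evidence of binding.

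The promoters of 6 genes are shown, each read 5′ to 3′ on the gene's own strand with the E2F letters in capitals. Windows that touch an exon in GENCODE M21 were passed over, which left 10 of the 32 genes, among them Pola1 on the X chromosome. Of the autosomal ones, Rrm1 (chr7:102441445-102441694, plus strand) and Mcm3 (chr1:20820313-20820562, minus) had the smallest p in the comparison of titles, and Tyms (chr5:30073626-30073875, minus) and Pola2 (chr19:5964207-5964456, minus) the largest. The other 2, Mcm5 (chr8:75109259-75109508, plus) and Mcm6 (chr1:128359706-128359955, minus), were added after their matches were seen.
Rrm1: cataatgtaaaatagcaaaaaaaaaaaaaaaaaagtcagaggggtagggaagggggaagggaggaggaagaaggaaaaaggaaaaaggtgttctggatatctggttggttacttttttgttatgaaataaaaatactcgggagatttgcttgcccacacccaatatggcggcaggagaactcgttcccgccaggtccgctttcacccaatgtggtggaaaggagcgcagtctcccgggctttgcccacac
Mcm3: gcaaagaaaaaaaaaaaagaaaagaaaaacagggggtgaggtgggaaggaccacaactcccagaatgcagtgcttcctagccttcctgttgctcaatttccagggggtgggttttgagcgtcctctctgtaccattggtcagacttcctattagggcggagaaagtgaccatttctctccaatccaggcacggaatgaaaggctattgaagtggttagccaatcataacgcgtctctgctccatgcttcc
Tyms: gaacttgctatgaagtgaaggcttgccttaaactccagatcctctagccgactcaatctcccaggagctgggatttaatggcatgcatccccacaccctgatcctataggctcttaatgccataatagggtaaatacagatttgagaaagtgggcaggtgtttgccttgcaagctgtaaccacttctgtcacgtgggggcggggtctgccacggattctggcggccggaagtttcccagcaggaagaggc
Pola2: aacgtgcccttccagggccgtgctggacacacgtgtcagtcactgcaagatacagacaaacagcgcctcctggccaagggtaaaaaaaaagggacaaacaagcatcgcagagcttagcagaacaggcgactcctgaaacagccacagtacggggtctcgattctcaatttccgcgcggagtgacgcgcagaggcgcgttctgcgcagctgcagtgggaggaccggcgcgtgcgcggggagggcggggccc
Mcm5: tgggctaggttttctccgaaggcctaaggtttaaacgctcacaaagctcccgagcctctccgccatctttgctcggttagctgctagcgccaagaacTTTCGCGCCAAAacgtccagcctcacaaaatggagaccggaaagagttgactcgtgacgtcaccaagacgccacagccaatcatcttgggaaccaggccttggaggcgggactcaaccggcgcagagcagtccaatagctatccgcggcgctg
Mcm6: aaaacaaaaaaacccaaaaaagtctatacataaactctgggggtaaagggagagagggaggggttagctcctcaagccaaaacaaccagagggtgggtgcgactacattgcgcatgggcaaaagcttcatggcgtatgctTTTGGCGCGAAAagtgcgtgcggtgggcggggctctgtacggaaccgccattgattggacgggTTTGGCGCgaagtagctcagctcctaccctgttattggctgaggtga
The first 4 carry no match in this window, Mcm5 carries 2 and Mcm6 carries 3. The matches that start 110 and 106 bases before the Mcm6 start overlap, as do those at 153 and 149 bases before the Mcm5 start.

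Replication and G1/S genes were mostly higher in the E1KO libraries. By edgeR's quasi-likelihood test over 13333 genes, with a threshold of 0.05 on the Benjamini-Hochberg adjusted p, 21 of the 40 rose, 1 fell (Pold1) and 18 were not called. Over all tested genes 23.3% were called, 12.2% as higher and 11.1% as lower, so the share of the 40 that rose was 52.5% beside 12.2%. Because the 40 were chosen with earlier results of these data known, this comparison is a description and no test. The log2 fold, E1KO over E1WT throughout, was positive for 38 of the 40 and had a median of 0.31, against 0.0065 over all tested genes. All 4 E1KO libraries lay above all 4 E1WT libraries for 22 of the 40 genes (13.9% of all tested genes did so) and below them for 1 (12.1%), and the remaining 17 overlapped.

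The shift was of like size in each E1KO library. The median log2 distance of the 40 genes from their E1WT mean was 0.320 in E1KO 1, 0.322 in E1KO 2, 0.342 in E1KO 3 and 0.344 in E1KO 4, with 34, 36, 35 and 38 genes above that mean. In the E1WT libraries, whose own mean is the reference, the same median ran from -0.015 to 0.026. Their deviations are centred by construction, so this range shows only the spread among E1WT libraries. Summed over the 40 genes, the level was 1963 ± 36.0 CPM in E1KO and 1627 ± 13.6 CPM in E1WT libraries (SD, n = 4 each), a ratio of 1.21, or 1.26 with plain library sizes. These are bulk samples, in which more cells of a type and more RNA per cell cannot be told apart.

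**Figure D1:**
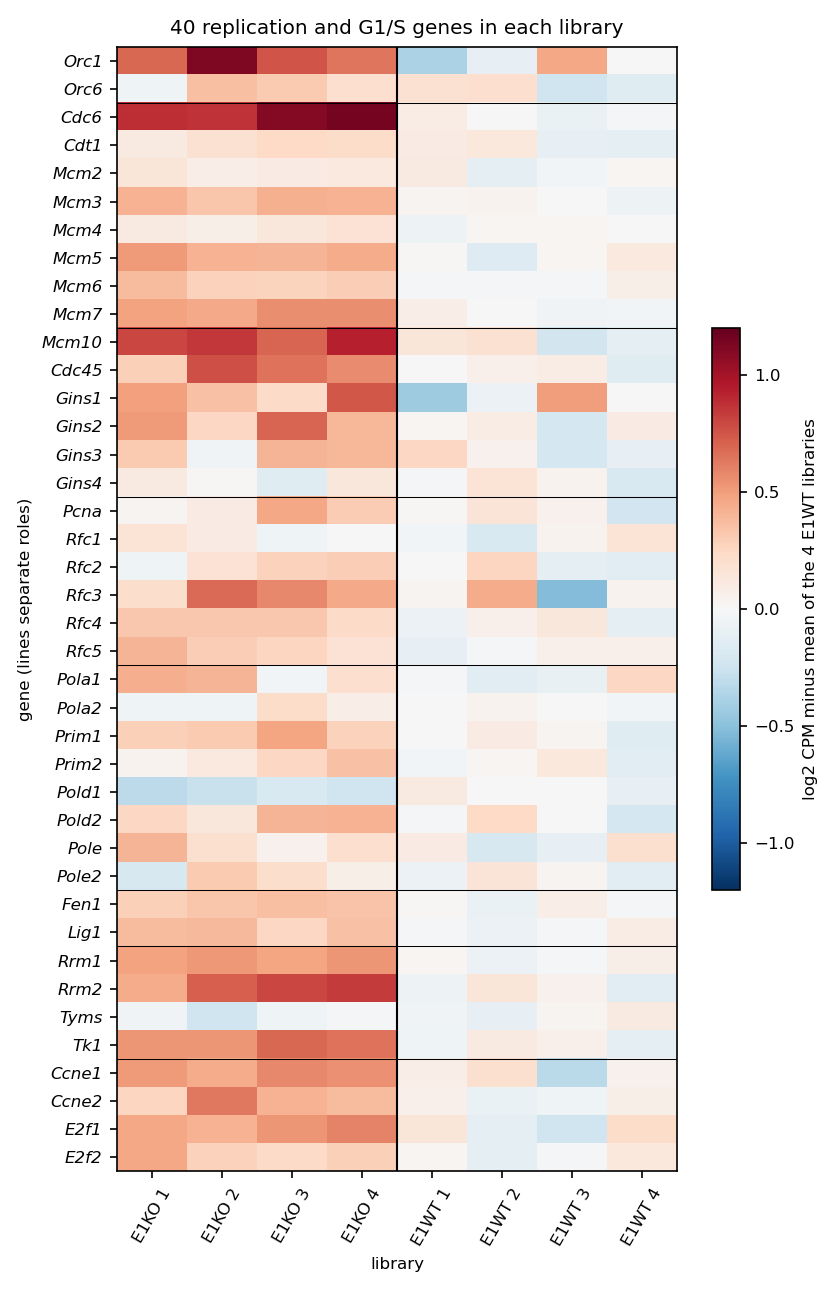
Level of each of the 40 genes (y axis, lines separate the roles) in each of the 8 libraries (x axis), as log2 CPM minus the mean of the 4 E1WT libraries, red for higher and blue for lower. The E1KO columns are red for most genes, and Pold1 and, faintly, Tyms are blue in all 4.

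Of the 2 origin recognition genes 1 was called, Orc1, as higher. Orc1, the ATPase subunit of the complex that is renewed with each cycle, lay at 4.59, 6.22, 4.804 and 4.43 CPM in E1KO 1 to 4 and at 2.16, 2.64, 3.93 and 2.83 CPM in E1WT 1 to 4. All 4 E1KO libraries lay above all 4 E1WT libraries, with a log2 fold of 0.79 ± 0.20 (SE; edgeR adjusted p = 0.014), although single libraries held only 60 to 205 counts. Orc6, its smallest subunit, lay at 8.74 to 11.7 CPM in E1KO and at 7.68 to 10.4 CPM in E1WT libraries, which overlap. Its log2 fold was 0.20 ± 0.13 (edgeR adjusted p = 0.30). Orc2, Orc3, Orc4 and Orc5, subunits outside the 40 and named after their values were seen, were not called. Their log2 folds were -0.05, -0.16, 0.01 and 0.01.

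Helicase loading genes rose in 5 of 8 cases. Cdc6 (chr11:98907801-98923940 on GRCm38, as for all gene positions here), the ATPase that recruits the ring to the origin complex, lay at 13.3, 13.2, 15.5 and 16.0 CPM in E1KO and at 7.65, 7.18, 6.82 and 7.14 CPM in E1WT libraries. The lowest E1KO library stood far above the highest E1WT library. Its log2 fold of 1.01 ± 0.10 (edgeR adjusted p = 5.4e-05) was the highest of the 40. Cdt1, the partner of Cdc6 in loading, lay at 46.0 to 50.5 CPM against 39.3 to 46.6 CPM, which overlap, with a log2 fold of 0.18 ± 0.07 (edgeR adjusted p = 0.090).

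Of the 6 subunits of the MCM ring 4 rose, and the log2 folds of the 6 ran from 0.11 to 0.51. Mcm7 (chr5:138164583-138172422) lay at 120, 118, 127 and 127 CPM in E1KO and at 90.6, 86.2, 83.5 and 83.8 CPM in E1WT libraries (log2 fold 0.51 ± 0.05, edgeR adjusted p = 5.6e-05). Mcm5 (chr8:75109569-75128439) lay at 136, 127, 127 and 130 CPM against 95.9, 85.7, 96.5 and 103 CPM (0.45 ± 0.06, adjusted p = 0.00041). Mcm3 (chr1:20802968-20820312) lay at 112, 106, 113 and 112 CPM against 85.9, 86.7, 83.7 and 80.6 CPM (0.40 ± 0.05, adjusted p = 0.00023). In these 3 genes the titles were wide apart. Mcm6 (chr1:128331590-128359664) followed, at 187, 175, 174 and 177 CPM against 142, 143, 142 and 151 CPM (0.31 ± 0.05, adjusted p = 0.0012).

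The other 2 subunits were not called. Mcm2 (chr6:88883474-88898780) lay at 123, 117, 119 and 121 CPM in E1KO and at 120, 103, 109 and 113 CPM in E1WT libraries, so E1WT 1 fell within the E1KO range. Its log2 fold was 0.11 ± 0.06 (edgeR adjusted p = 0.19), with a 95% interval up to 0.22. Mcm4 (chr16:15623897-15637400) lay at 109 to 117 CPM against 99.8 to 106 CPM, with all E1KO libraries above, and its log2 fold of 0.12 ± 0.05 had a 95% interval of 0.02 to 0.22 (edgeR adjusted p = 0.10).

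The ratio of Mcm7 to Mcm2 within a library, in which scaling cancels, was 0.979 to 1.06 in E1KO and 0.741 to 0.838 in E1WT libraries. These are the subunits with the highest and the lowest fold, chosen after their values were seen, and differences between subunits were not tested.

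**Figure D2:**
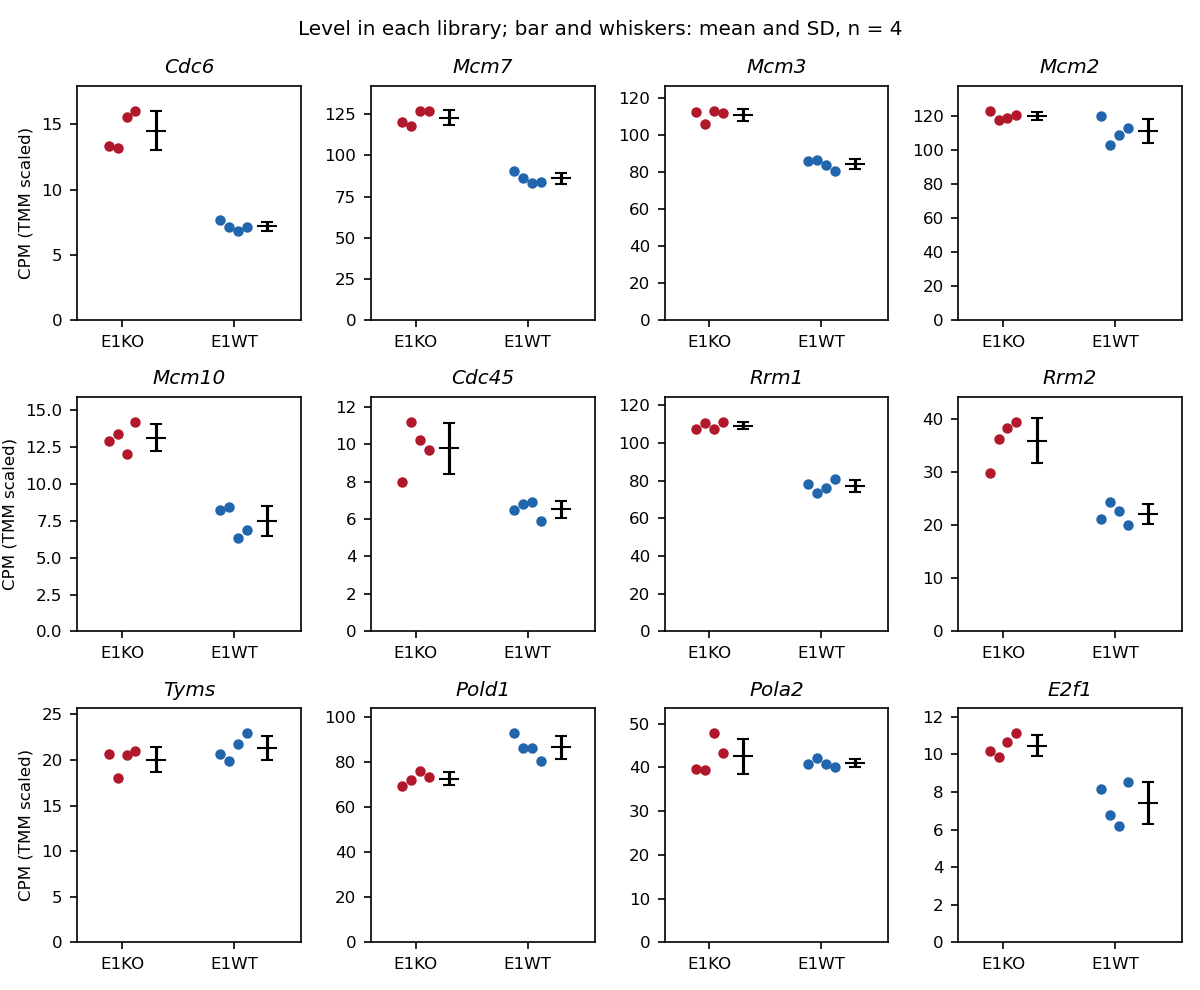
Level of 12 of the genes in CPM (y axis, from 0) in each library (points; E1KO red, E1WT blue), with the mean and SD of the 4 libraries beside them. Cdc6, Mcm7, Mcm3, Mcm10, Cdc45, Rrm1, Rrm2 and E2f1 are higher in all 4 E1KO libraries, Pold1 is lower in all 4, and Mcm2, Tyms and Pola2 overlap.

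Among the genes that activate the helicase, 3 of 6 rose. Mcm10 (chr2:4989714-5012791), which helps the loaded ring to open DNA, lay at 12.9, 13.4, 12.1 and 14.2 CPM in E1KO and at 8.23, 8.41, 6.35 and 6.85 CPM in E1WT libraries. Its log2 fold was 0.82 ± 0.11 (edgeR adjusted p = 0.00046), second to Cdc6 among the 40. Cdc45 (chr16:18780447-18811987), a subunit of the active helicase, lay at 7.97, 11.2, 10.2 and 9.70 CPM against 6.49, 6.79, 6.93 and 5.89 CPM (0.58 ± 0.12, edgeR adjusted p = 0.0059). Neither gene overlapped between the titles.

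The 4 GINS genes encode one complex of the active helicase and were low except for Gins4. Gins2 lay at 4.70, 3.89, 5.34 and 4.34 CPM in E1KO and at 3.32, 3.49, 2.81 and 3.51 CPM in E1WT libraries (log2 fold 0.47 ± 0.15, edgeR adjusted p = 0.045). That call was lost under 11 of 14 alternative settings, among them without any 1 library other than E1KO 2 (adjusted p up to 0.13), and 67.3% of the gene's exon length overlaps Gse1 on the other strand, where reads cannot be told apart without known strand use. Gins1 (0.44 ± 0.21, adjusted p = 0.16) and Gins3 (0.27 ± 0.13, adjusted p = 0.17) overlapped between the titles and were not called. Gins4 lay at 24.4 to 29.8 CPM against 23.9 to 30.3 CPM, nearly the same range in both titles, with a log2 fold of 0.03 and a 95% interval of -0.15 to 0.21.

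Of the 6 genes of the clamp and its loader 2 were called, both higher. Pcna (chr2:132249162-132253314), the clamp itself, was the most abundant of the 40 per length, at 63.5 CPM per kb of exon. Its level was 143, 150, 193 and 173 CPM in E1KO and 141, 156, 145 and 119 CPM in E1WT libraries, so E1KO 1 and E1KO 2 lay within the E1WT range. The log2 fold of Pcna was 0.23 ± 0.10 (edgeR adjusted p = 0.13), with a 95% interval of 0.03 to 0.43.

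Of the 5 loader subunits, Rfc4 and Rfc5 were called. Rfc4 lay at 10.4 to 11.1 CPM in E1KO and at 8.13 to 9.70 CPM in E1WT libraries (log2 fold 0.30 ± 0.10, edgeR adjusted p = 0.041), and Rfc5 at 24.1 to 28.3 against 19.9 to 22.3 CPM (0.29 ± 0.08, adjusted p = 0.021). Rfc4 lost its call under 11 of the 14 alternatives (adjusted p up to 0.14), among them without any 1 library other than E1WT 3. Rfc5 lost it under 5 (adjusted p up to 0.077), among them without E1KO 1, E1KO 2 or E1WT 1. Rfc4 shares 12.7% of its exon length with Eif4a2, and Rfc5 shares 10.7% with Wsb2. Rfc1, the large subunit (0.05 ± 0.08), Rfc2 (0.17 ± 0.10) and Rfc3 (0.45 ± 0.18) overlapped between the titles, with edgeR adjusted p values of 0.66, 0.25 and 0.096. Without E1WT 2, Rfc2 and Rfc3 passed at adjusted p values of 0.046 and 0.020, as did Cdt1 at 0.042.

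The polymerases and primase were the role with the smallest shift, with a summed level of 278 ± 6.45 CPM in E1KO and 264 ± 6.81 CPM in E1WT libraries. Pold1 (chr7:44532746-44548849), the catalytic subunit of polymerase delta, lay at 69.5, 72.0, 76.0 and 73.4 CPM in E1KO and at 92.9, 86.5, 86.2 and 80.7 CPM in E1WT libraries. It was the one gene of the 40 with every E1KO library below every E1WT library, and it fell by 0.25 on the log2 scale (SE 0.06, edgeR adjusted p = 0.0094). Pold2 (chr11:5872180-5878292), the small subunit that binds Pold1, lay at 52.4, 48.3, 58.6 and 58.7 CPM against 43.5, 51.8, 43.9 and 38.0 CPM. E1WT 2 fell within the E1KO range of Pold2, and its call as higher (0.30 ± 0.10, edgeR adjusted p = 0.045) was lost under 7 of 14 alternatives (adjusted p up to 0.13), among them without E1KO 3, E1KO 4, E1WT 1, E1WT 3 or E1WT 4.

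Primase and the other polymerases were mixed. Prim1, the catalytic primase subunit, lay at 18.3, 18.7, 20.9 and 18.2 CPM in E1KO and at 15.1, 16.1, 15.4 and 13.6 CPM in E1WT libraries (log2 fold 0.34 ± 0.09, edgeR adjusted p = 0.016). Its partner Prim2 overlapped between the titles (0.19 ± 0.10, adjusted p = 0.19). So did Pola1 (0.26 ± 0.12), the catalytic subunit of polymerase alpha on the X chromosome, and Pole (0.21 ± 0.10), that of polymerase epsilon, with adjusted p values of 0.14 and 0.16. Both passed when the trend of each library with exon length was removed (edgeR adjusted p = 0.021 for Pola1 and 0.0078 for Pole), and Pola1 also without E1KO 3 or without E1WT 4. Pola2 lay at 39.5 to 47.9 CPM against 40.2 to 42.1 CPM, and Pole2 at 11.6 to 16.5 against 12.2 to 14.8 CPM. The 95% intervals of their log2 folds were -0.09 to 0.19 and -0.12 to 0.34.

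**Figure D3:**
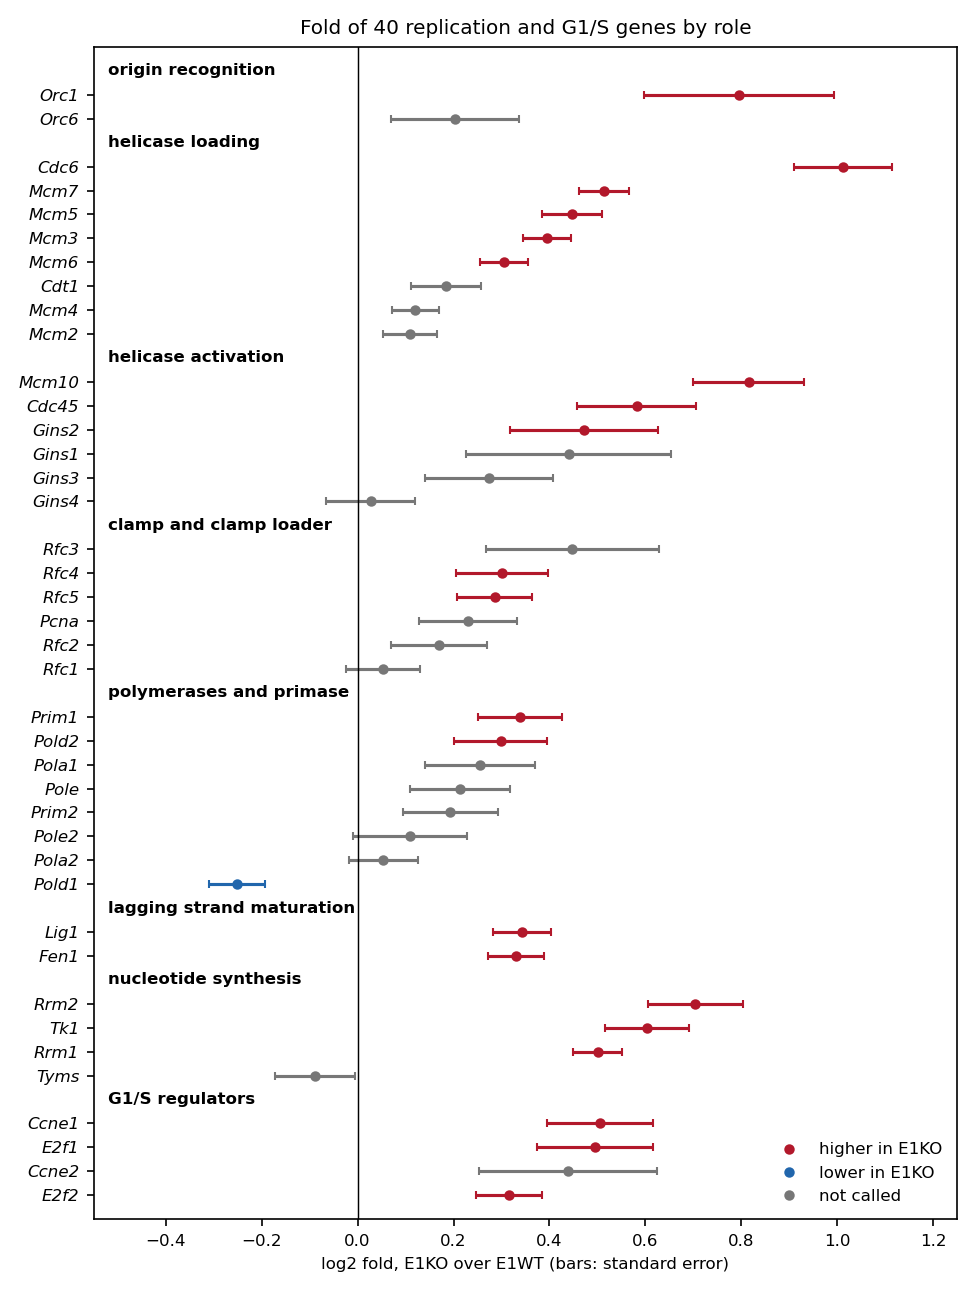
Log2 fold, E1KO over E1WT (x axis), of each of the 40 genes, grouped by role (y axis), with bars for the standard error and colours for the call in edgeR. Cdc6 stands furthest right at 1.01, and Pold1 is the one gene called lower, at -0.25.

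Both genes that finish the lagging strand rose. Lig1, the ligase that seals Okazaki fragments, lay at 61.0, 61.1, 55.6 and 59.6 CPM in E1KO and at 46.4, 44.6, 46.4 and 49.8 CPM in E1WT libraries (log2 fold 0.34 ± 0.06, edgeR adjusted p = 0.0018). Fen1, the flap endonuclease that trims them, lay at 47.3 to 49.6 CPM against 36.7 to 40.9 CPM (0.33 ± 0.06, edgeR adjusted p = 0.0020). The titles did not overlap in either. An antisense gene, Gm10143, covers 78.8% of the exon length of Fen1, so part of its reads cannot be assigned by strand.

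Nucleotide synthesis was the role with the largest shift, its sum standing at 1.38 times the E1WT level. Rrm1 (chr7:102441695-102469771), the large subunit of ribonucleotide reductase, lay at 108, 111, 107 and 111 CPM in E1KO and at 78.4, 73.4, 76.0 and 81.0 CPM in E1WT libraries (log2 fold 0.50 ± 0.05, edgeR adjusted p = 5.4e-05). Rrm2 (chr12:24708241-24714146), the small subunit made in S phase, lay at 29.8, 36.1, 38.2 and 39.4 CPM against 21.1, 24.2, 22.7 and 20.03 CPM (0.70 ± 0.10, adjusted p = 0.00045). Tk1 (chr11:117815526-117826092), the thymidine kinase of the salvage route, lay at 17.9, 17.8, 19.9 and 19.5 CPM against 11.9, 13.3, 12.9 and 11.4 CPM (0.60 ± 0.09, adjusted p = 0.00054). All 3 were clear of overlap. Tyms (chr5:30058202-30073617), thymidylate synthase of the de novo route, was not called. It lay at 20.6, 18.03, 20.5 and 20.96 CPM in E1KO and at 20.6, 19.9, 21.8 and 22.9 CPM in E1WT libraries, with a log2 fold of -0.09 ± 0.08 and a 95% interval of -0.25 to 0.07.

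The G1/S regulators rose in 3 of 4 cases. E2f2 (chr4:136172394-136196057), the more abundant of the E2F activators shown, lay at 96.2, 84.6, 81.6 and 85.3 CPM in E1KO and at 70.7, 64.2, 68.6 and 75.9 CPM in E1WT libraries (log2 fold 0.32 ± 0.07, edgeR adjusted p = 0.0073). Its level per length was 16.1 CPM per kb of exon, against 2.83 for E2f1. E2f1 (chr2:154559407-154569892) lay at 10.2, 9.86, 10.7 and 11.1 CPM against 8.15, 6.76, 6.20 and 8.55 CPM (0.49 ± 0.12, adjusted p = 0.012). Ccne1, cyclin E1, lay at 15.4, 14.8, 16.2 and 15.9 CPM against 11.5, 12.4, 8.66 and 11.2 CPM (0.51 ± 0.11, adjusted p = 0.0074). Ccne2, cyclin E2, had the lowest counts of the 40 genes, at 48 to 93 a library. It lay at 2.17 to 2.82 CPM in E1KO and at 1.70 to 1.90 CPM in E1WT libraries, without overlap, and was not called (0.44 ± 0.19, adjusted p = 0.11).

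The sizes of the shifts by role were ordered as follows. The summed E1KO level over the E1WT level was 1.38 for nucleotide synthesis, 1.29 for origin recognition, 1.28 for the G1/S regulators, 1.26 for lagging strand maturation, 1.24 for both helicase loading and helicase activation, 1.14 for the clamp and its loader and 1.05 for polymerases and primase. The origin recognition sum holds Orc1 and Orc6 alone, without Orc2, Orc3, Orc4 and Orc5. Differences between roles were not tested. Sums of the last 2 roles came closest between the titles, with the clamp group at 332 to 380 CPM against 296 to 328 CPM.

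Across the 40 genes the log2 fold went down with the level per length. Spearman's rho between them was -0.36 over the 40 genes, beside -0.080 over the 13254 tested genes with a length. Genes share libraries and low genes have wider errors, so this is a description. The upper 20 genes by level had a median log2 fold of 0.30 with 12 called higher, and the lower 20 a median of 0.44 with 9 called higher. Levels per kb of exon were highest for Pcna (63.5), Mcm6 (34.6), Mcm4 (30.2) and Mcm5 (28.2), and lowest for Ccne2 (0.61), Gins2 (0.96) and Orc1 (1.14). Within a title, deviations of the genes from the title's mean had a median correlation of 0.029 over the 780 pairs of genes.

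**Figure D4:**
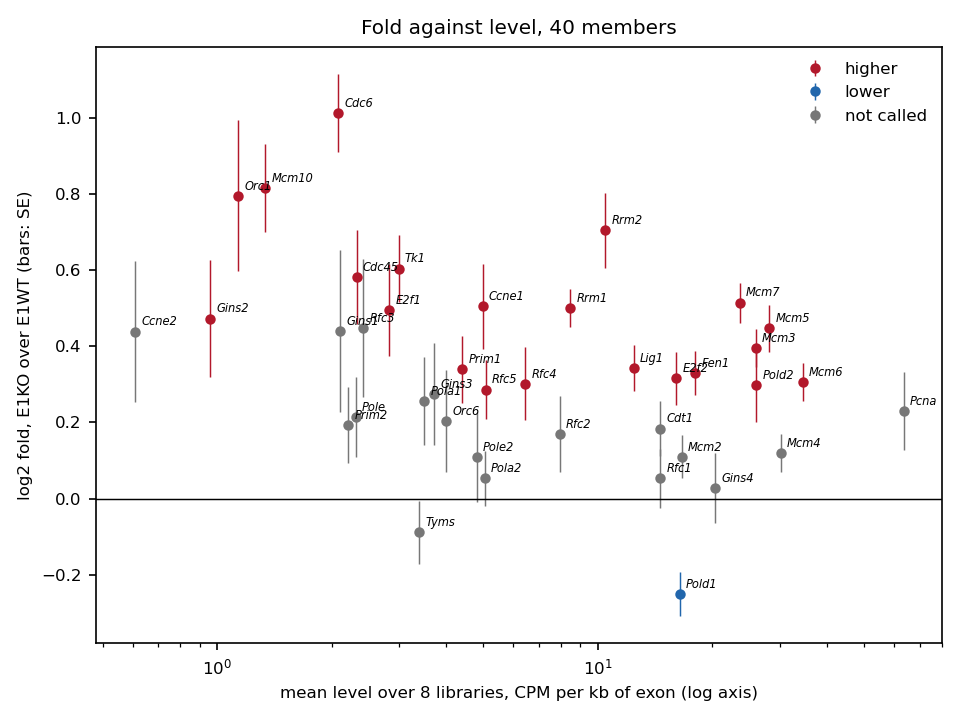
Log2 fold, E1KO over E1WT (y axis, bars for SE), against the mean level over the 8 libraries in CPM per kb of exon (x axis, log scale), 1 point per gene, coloured by call. The largest folds (Cdc6, Mcm10, Orc1) belong to genes of low level, and Pcna stands alone at 63.5 CPM per kb.

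Genes of the same pathways outside the 40 were higher in part. Of 106 such genes 105 were tested, 28 rose (26.7%, beside 12.2% of all genes), 1 fell and the median log2 fold was 0.14. Among 39 proteins of licensing, firing and the fork, 11 rose (28.2%) and 0 fell in edgeR. They include Chaf1a, a chaperone that places histones on new DNA, at 22.6 ± 1.94 against 14.9 ± 1.30 CPM (0.60 ± 0.10, edgeR adjusted p = 0.0010). Slbp, which binds histone mRNA, rose by 0.40 ± 0.06, Top2a by 0.47 ± 0.08 and the nuclease Dna2 by 0.85 ± 0.14. Of 28 genes of the nucleotide pool 5 rose and 1 fell, and the share that rose, 17.9%, was near the 12.2% of all genes. Those named by the rule for the text are Paics (0.30 ± 0.06) and Ppat (0.24 ± 0.06) of purine synthesis, Impdh2 (0.18 ± 0.05), which makes guanine precursors, and Dut (0.43 ± 0.13), which clears dUTP. Impdh2 lost its call without E1KO 2, E1WT 1 or E1WT 3, and Dut without any 1 library other than E1KO 1 and E1WT 2 (edgeR adjusted p up to 0.081 and 0.091). This count rested on single libraries and settings, being 2 without E1KO 2 or without E1WT 1, 3 without E1KO 4 and 10 with the DESeq2 test. The gene that fell was Rrm2b, the p53-induced reductase subunit, at 55.9 ± 2.75 against 64.8 ± 2.64 CPM (-0.21 ± 0.06, edgeR adjusted p = 0.021), and its call was lost without E1KO 4, without E1WT 3 and without E1WT 4.

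Cyclins, kinases and their inhibitors rose in 8 of 22 tested cases (36.4%, beside 12.2% of all tested genes) and 0 fell in edgeR. Ccna2, the cyclin of S phase and G2, lay at 31.5 ± 1.42 against 19.3 ± 2.05 CPM (0.71 ± 0.09, edgeR adjusted p = 0.00018). Cdc25b, a phosphatase that activates cyclin kinases, rose by 0.45 ± 0.05, Ccnd3 by 0.38 ± 0.06 and Skp2, which marks p27 for degradation, by 0.66 ± 0.15. Named after their values were seen, Cdkn1b, which encodes p27, lay at 226 ± 8.41 against 226 ± 9.62 CPM (95% interval of the log2 fold -0.10 to 0.10), Cdk2 and Cdk4 were not called (0.14 ± 0.08 and 0.21 ± 0.11), and Cdkn1a, which encodes p21, rose by 1.19 ± 0.28 from 1.23 to 2.82 CPM (edgeR adjusted p = 0.0098). Single libraries held only 24 to 126 counts of Cdkn1a. Of 16 pocket protein and E2F family genes 4 rose (25%) and 0 fell in edgeR: E2f8 (0.76 ± 0.10), Mybl2 (0.59 ± 0.08), E2f3 (0.43 ± 0.12) and Rbl2 (0.19 ± 0.06). E2f3 lost its call without E1KO 4 or E1WT 1, and Rbl2 without any 1 library other than E1KO 3, E1KO 4 and E1WT 4. With these libraries left out in turn, their edgeR adjusted p values reached 0.073 and 0.080.

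Genes in a list of S phase and mitosis, most of them mitotic, were mostly higher as well. Of 22 in a list that shares Top2a and Ccna2 with those above, 17 rose (77.3%, beside 12.2% of all tested genes) and 0 fell in edgeR. The median log2 fold was 0.49 and the sum stood at 667 to 757 CPM in E1KO and 477 to 570 CPM in E1WT libraries. Ccnb1, the mitotic cyclin, rose by 0.60 ± 0.08 (edgeR adjusted p = 0.00029). Mki67, the proliferation antigen, named after its value was seen, lay at 128 to 197 CPM against 99.2 to 166 CPM and was not called (0.27 ± 0.15, edgeR adjusted p = 0.22), but passed once the trend with exon length was removed (adjusted p = 0.029).

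Markers of other cells moved with the titles in the same libraries. CD4 T cell markers were present throughout but lower, with a sum of 2073 to 2204 CPM in E1KO and 2528 to 2622 CPM in E1WT libraries, and 3 of the 4 counted fell (among them Cd3g by 0.42 and Cd4 by 0.27 on the log2 scale). Erythroid markers summed to 175 to 215 CPM against 65.1 to 89.0 CPM. Of the 7 tested 5 rose, with Car2 at 67.0 ± 5.04 against 29.2 ± 3.87 CPM and Car1 at 103 ± 13.8 against 35.2 ± 6.02 CPM. Car1 and Car2 held most of the sum. Alas2, named after its value was seen, went the other way, at 1.13 against 1.91 CPM. It was not called (log2 fold -0.75 ± 0.35, edgeR adjusted p = 0.15). The 4 globin genes are listed at 0 in all libraries, and whether their reads were lost in alignment or counting was not tested. Monocyte and macrophage markers summed to 66.5 to 80.5 against 28.4 to 34.7 CPM (3 of 5 rose, smallest p for Lyz2 and Csf1r), and dendritic cell markers to 24.2 to 29.9 against 12.04 to 15.5 CPM (5 of 5 rose, smallest p for Itgax and Flt3). Plasma cell markers summed to 808 to 1013 against 547 to 758 CPM. Of these 1 of 4 rose, Jchain, which held most of the sum at 803 ± 84.6 against 555 ± 84.7 CPM, and 3 were not called.

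The remaining marker sums were closer, at 1.29 times the E1WT level for platelets (0 of 2 tested called), 1.10 for neutrophils (1 of 4 higher, 1 lower), 1.08 for B cells (1 of 5 higher), 0.99 for NK cells (1 of 3 tested higher, Klra8 at 0) and 0.86 for CD8 T cells (1 of 2 lower). The gamma-delta T cell markers Trdc and Tcrg-C1 are not among the counted symbols and so were not analysed here. The share of reads given to no gene also differed, at 28.2% to 30.8% in E1KO and 33.3% to 37.0% in E1WT libraries. Of 18 such measures compared, 9 reached the smallest two-sided exact permutation p of 0.0286, which is 0.0571 after adjustment over the 18, so none passed. Replication genes are active in any dividing cell, and the part of these other cells and of the read shares in the levels of the 40 genes was not tested.

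**Figure D5:**
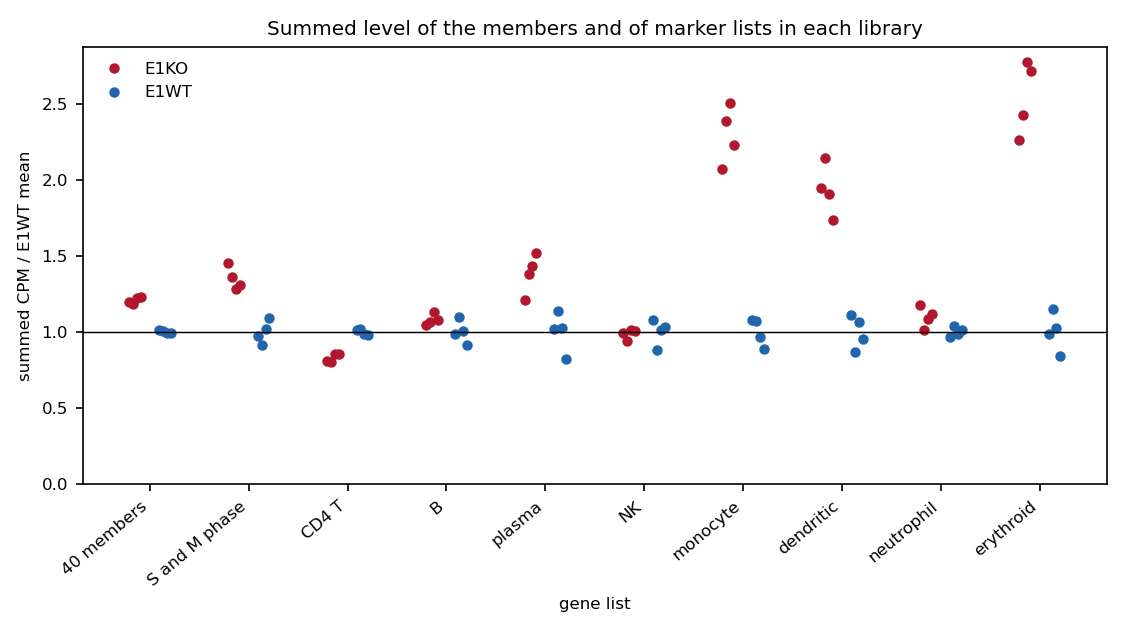
Summed CPM of gene lists in each library, divided by the mean of the 4 E1WT libraries (y axis, from 0; E1KO red, E1WT blue), for the 40 genes, the S and M phase genes and the marker lists of cell types (x axis). The 40 genes stand at about 1.21 in E1KO libraries, the erythroid markers at 2.55, the monocyte markers at 2.30 and the CD4 T cell markers at 0.83.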

How the data were processed

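RNA of naive CD4+ T cells was sequenced as 75 bp paired ends from 50 ng of RNA in 8 libraries, per the labels' protocols. Each deposited file lists raw counts per gene symbol, which the authors made with TopHat2 2.1.0, HTSeq 0.9.1 and build mm10, per the submitters' processing notes. Neither annotation nor strand setting is given in the sources used here. Another 5 lines per file hold reads given to no gene (28.2% to 37.0% of all counts), left out of library sizes and tests. Gene counts were 28264655 to 36738202 a library, and at that depth the lowest of the 40 genes had 48 counts.

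Libraries were grouped by title. The labels do not say that each came from another animal, so the p-values reflect only the spread among these libraries, possibly a technical one. Genes were tested with edgeR 4.0.16 (R 4.3.3), with TMM scaling, its default filter (count minimum 10, total 15), the quasi-likelihood test and Benjamini-Hochberg adjustment at 0.05. SE values derive from its F statistic, and 95% intervals are 1.96 SE to each side. Values of single libraries were compared by exact permutation, two-sided. The test was checked on simulated counts of 13156 genes: of 50 genes each changed 1.25-, 1.5-, 2- and 4-fold it recovered 16%, 60%, 78% and 96%, with 8 false among 133 calls. The simulated counts held far fewer changed genes than were called in the data, and no exon-length trend. These rates may therefore not hold for the data.

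Alternatives were DESeq2 1.42.0 size factors and test, no filter, the replicate number as a block, removal of each library's exon-length trend, each library left out and E1KO 1 with E1WT 4 left out. Positions come from GENCODE M21 (GRCm38): 23384 symbols matched by name, 670 through a synonym and 367 did not match.

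The 40 genes and all lists were chosen with earlier results of these data known. The text names all 40, the 4 called genes with the smallest p per direction in each related list, and the 2 with the smallest p in the S and M phase and marker lists. Promoters are shown for the 2 smallest and 2 largest p among genes with an entry on autosomes other than 18, passing over windows that touch an exon. Other names are marked as chosen with their values in view, and fewer markers are named for plasma cells and for lists whose sums were close.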

Additional observations from a re-analysis of the deposited data

Results flagged for a closer look

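Among the 80 sets of 4 libraries formed by the 40 genes and both titles, 4 held a library far from the other 3 by Dixon's ratio at its 95% critical value, which chance does in about 1 set in 20. Mcm3 was low in E1KO 2, at 105.7 CPM against 112.1 to 112.9 CPM in the other E1KO libraries. Mcm6 was high in E1WT 4, at 151.2 CPM against 141.5 to 142.6 CPM. Rfc4 was low in E1KO 4, at 10.4 CPM, with the others within 11.08 and 11.11 CPM. Tyms was low in E1KO 2, at 18.03 CPM against 20.5 to 20.96 CPM. Calls of Mcm3 and Mcm6 held under all 14 alternatives.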

How the results depend on the processing

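Of the 21 genes that rose, 17 kept the call under all 14 alternatives, and Pold1 stayed lower in all of them. Gins2, Rfc4, Rfc5 and Pold2 lost it under at least 1, 5 genes not called passed under at least 1, and 13 never did. The 40 genes gave 21 higher with DESeq2 size factors, with the DESeq2 test and with the exon-length trend removed, 19 with no filter, 17 with E1KO 1 and E1WT 4 both left out and 17 to 22 with single libraries left out, and 1 lower in each. With the replicate block the counts were 17 higher and 1 lower, and over all genes 1151 and 1005. Deviations from the title's mean correlated at -0.099 to 0.014 between same-numbered libraries and at -0.32 to 0.26 between the others. Other differences between libraries also enter these correlations, so they cannot show whether the numbers pair the samples. Of the related genes called lower (1), there were 2 with the DESeq2 test, 2 with the length trend removed, 0 with the replicate block, 0 with both libraries left out and 0 to 1 with single libraries left out. Related nucleotide pool genes called higher (5) were 10 with the DESeq2 test and 2 with the block. With the block Impdh2, Dut, Rrm2b, E2f3 and Rbl2 lost their calls. Of 35 named genes outside the 40 that were followed through the alternatives, 28 kept their side of the threshold and their sign under all. Alas2, Orc2, Orc3, Orc4 and Orc5 were not among those followed. The sign turned for 4 genes near 0, none of them called: Cdkn1b to -0.0094 (DESeq2 size factors and DESeq2 test), -0.026 (length trend), -0.028 (both left out) and -0.019 to 0.027 with single libraries left out, Gins4 to -0.026 (length trend), -0.064 (both left out) and -0.029 to 0.088 with single libraries left out (below 0 without E1KO 1, E1KO 4 or E1WT 4), Rfc1 to -0.00028 without E1WT 2 (range -0.00028 to 0.11) and Pola2 to -0.0077 without E1KO 3 (range -0.0077 to 0.088). The cause was not tested. At this depth genes such as Ccne2 and Gins2, with 48 to 171 counts a library, have SEs of 0.19 and 0.15.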
